A study of Mus musculus with 16 samples.

Results

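Pou5f1, Sox2 and Nanog encode the transcription factors at the core of the mouse pluripotency network, and the open chromatin around these 3 genes is described here. A region was counted when its centre lay within 150 kb of any transcription start site (TSS) of a member gene in GENCODE M21, in mm10 coordinates. The rule used position alone, and it took 95 of the 81132 regions of the merged list, 30 at Pou5f1, 18 at Sox2 and 47 at Nanog. No region fell into more than 1 window.

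The regions come from ATAC-seq, in which the Tn5 transposase cuts and tags accessible DNA, in SBROS mouse embryonic stem cells. These cells have a CGR8 background and carry a SNAP tag on both Sox2 alleles and a HALO tag on a single Oct4 (Pou5f1) allele, each inserted at the stop codon. The tags were added to the SBR line, which reports Sox1 and Brachyury expression, and each line was grown from single clones, so that the findings hold for 1 clonal line. Cells were kept with LIF, 3 µM CHIR99021 and 0.8 µM PD184352, labelled with 100 nM HaloTag TMR, 12 nM SNAP-SiR647 and 1.62 µM Hoechst 33342, and sorted in G1 phase by their SOX2 and OCT4 levels. The groups were SHOH (SOX2 high, OCT4 high), SHOL (SOX2 high, OCT4 low), SLOH (SOX2 low, OCT4 high) and SLOL (SOX2 low, OCT4 low), with 3 libraries each. The list joins the peaks of all 12 libraries and holds positions only, so the depth of each library is unknown from it, and the 4 groups cannot be compared at these loci.

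OCT4 and SOX2 bind DNA together at a composite site, in which a SOX half-site stands directly before an octamer-like site, and they bind at their own genes and at Nanog. The authors called the effect of this binding on Sox2 and Oct4 expression unclear. In their tests, overexpressed SOX2 lowered Sox2 mRNA and left Oct4 mRNA unchanged. Pou5f1 is known for a proximal and a distal enhancer upstream of its start, the distal enhancer being the more active in naive cells. Sox2 is known for the regulatory regions SRR1 and SRR2 that flank the gene and for a far downstream control region that its expression in embryonic stem cells requires, and Nanog for enhancers upstream and downstream in a gene cluster that also holds Gdf3 and Dppa3.

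Both exact composites that lay in a listed region of these loci were in a known enhancer window. The letters searched were TTGTNATGC on both strands, where TTGT belongs to the SOX part and ATGC to the octamer part. They were found in 2 of the 95 regions (2.11%, 95% Wilson confidence interval 0.579 to 7.35), a share near the 1.66% of all regions. With a C also required at the second base before TTGT, both regions still held a match, beside 0.667% of all regions, and with 2 regions the interval spans either share. The first was in the region at chr17:35503827-35504366, in the window of the Pou5f1 distal enhancer, and the second in the region at chr3:34653773-34654061, in the window of Sox2 SRR2. A further exact composite, on the minus strand at chr6:122707417-122707425, stood 72 to 64 bp before the Nanog start, where the list has no region. The 3 composites are shown with the 3 bases before and after them, each 5′ to 3′ on the strand that reads TTGT first, with the searched letters in capitals, since they show how alike the sites are.
Pou5f1 distal enhancer, chr17:35504050-35504064, minus strand: cctTTGTTATGCatc
Sox2 SRR2, chr3:34654048-34654062, plus strand: ccaTTGTGATGCata
Nanog promoter, chr6:122707414-122707428, minus strand: acaTTGTAATGCaaa
The Pou5f1 and Sox2 composites each overlapped a match to the SOX motif, CCTTTGT at Pou5f1 and CCATTGT at Sox2. The base between the SOX and octamer parts differed at all 3 genes.

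The surroundings of the first site are shown because this stretch of 300 bases holds matches to 3 of the motifs searched. It is chr17:35503907-35504206 of mm10 on the minus strand, with the composite in capitals.
Pou5f1 distal enhancer: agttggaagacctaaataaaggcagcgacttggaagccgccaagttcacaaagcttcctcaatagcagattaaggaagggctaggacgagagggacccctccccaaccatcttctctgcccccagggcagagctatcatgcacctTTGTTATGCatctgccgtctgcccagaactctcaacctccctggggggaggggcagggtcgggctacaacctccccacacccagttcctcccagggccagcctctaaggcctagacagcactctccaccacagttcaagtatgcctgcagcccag
The composite lay 39 bp upstream of the region's centre. The KLF motif CCACACCC was found 113 bp upstream of the centre, on the same strand as the composite. Among all regions within 10% of this region's width, 2.30% held the composite.

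The region in the SRR2 window is shown whole, 289 bases at chr3:34653773-34654061 on the plus strand, because its composite lies at the very edge of it.
Sox2 SRR2: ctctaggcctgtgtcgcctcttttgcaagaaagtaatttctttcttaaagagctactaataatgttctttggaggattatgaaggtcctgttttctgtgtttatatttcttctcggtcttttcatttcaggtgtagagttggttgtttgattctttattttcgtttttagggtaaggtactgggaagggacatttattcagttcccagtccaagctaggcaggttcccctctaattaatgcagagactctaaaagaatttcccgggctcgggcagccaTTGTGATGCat
Here the composite stood 138 bp downstream of the region's centre and ended 2 bases before the region's last base. Among regions of like width, 1.20% held it. With a GC content of 40.5%, this region lay below the first quartile of all regions, 46.8%.

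Upstream of the Nanog start, the 250 bases at chr6:122707239-122707488 are given on the minus strand, as RefSeq's promoter table for GRCm38.p6 holds them on the other strand, with the composite in capitals.
Nanog promoter: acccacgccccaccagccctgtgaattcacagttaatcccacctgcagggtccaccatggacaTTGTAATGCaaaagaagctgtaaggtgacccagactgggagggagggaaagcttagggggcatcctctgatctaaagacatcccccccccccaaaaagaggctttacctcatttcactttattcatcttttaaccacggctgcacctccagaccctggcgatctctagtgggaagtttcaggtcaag
Of the 32851 promoters of 300 bases in that table, 0.731% held the composite letters. No value from these cells belongs to this stretch, since no listed region covers it.

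The octamer ATGCAAAT was found in 2 regions, both in the Nanog window and neither at the gene itself. The region in the far upstream enhancer window with a match, chr6:122660605-122660786, is shown whole on the plus strand with the octamer in capitals.
Nanog far upstream enhancer: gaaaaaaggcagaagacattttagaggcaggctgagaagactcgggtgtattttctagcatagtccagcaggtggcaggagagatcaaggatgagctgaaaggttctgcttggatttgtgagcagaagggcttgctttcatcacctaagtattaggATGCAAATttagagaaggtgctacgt
Its octamer lay 69 bp downstream of the region's centre, and 1.47% of regions of like width held one. The other region with octamers, at chr6:122624539-122624885, had 2 of them, both on the minus strand.

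At the gene starts themselves, the 3 loci differed. Pou5f1 had a region over its start, the regions of Sox2 flanked its start, and Nanog had none nearby. The Pou5f1 region, chr17:35505809-35506309, was 501 bp wide with a GC content of 64.1% and reached from 209 bp before the start into the gene. Upstream of it followed the 387 bp region of the proximal enhancer window, centred 926 bp before the start, and the 540 bp region of the distal enhancer window, centred 1922 bp before the start. These 3 regions formed a compact group, and no other region lay between it and the shared promoter of Tcf19 and Cchcr1, 10.97 kb downstream of the Pou5f1 start.

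At Sox2, a 767 bp region at chr3:34649396-34650162 ended 243 bp before the GENCODE start, and a 459 bp region at chr3:34650726-34651184 began 321 bp after it, within the gene's only exon. RefSeq places the Sox2 start 410 bp further upstream, inside the first of these regions. By that start, Sox2 like Pou5f1 had a region over its start. Both regions were rich in GC, with 60.5% and 65.1%.

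The nearest regions to the Nanog start lay 4255 bp upstream and 4297 bp downstream. The upstream region, chr6:122702193-122703234, was 1042 bp wide and lay in the window of the known upstream enhancer. The downstream region, 223 bp wide, lay in a Nanog intron. Nanog therefore had no region over any base of its promoter, counted from 1000 bp before to 100 bp after a TSS, as 33.5% of the 21938 protein-coding genes had none. At 28.2% of these genes the nearest region was at least as far from the start as at Nanog. Of the 32-letter words of the Nanog promoter, 0 of 1070 had another exact copy on the chromosomes, and the same held at Pou5f1 and at Sox2. The authors had also removed regions that overlapped peaks of a ChIP-seq input, and whether a region at the Nanog start was among them was not tested.

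**Figure D1:**
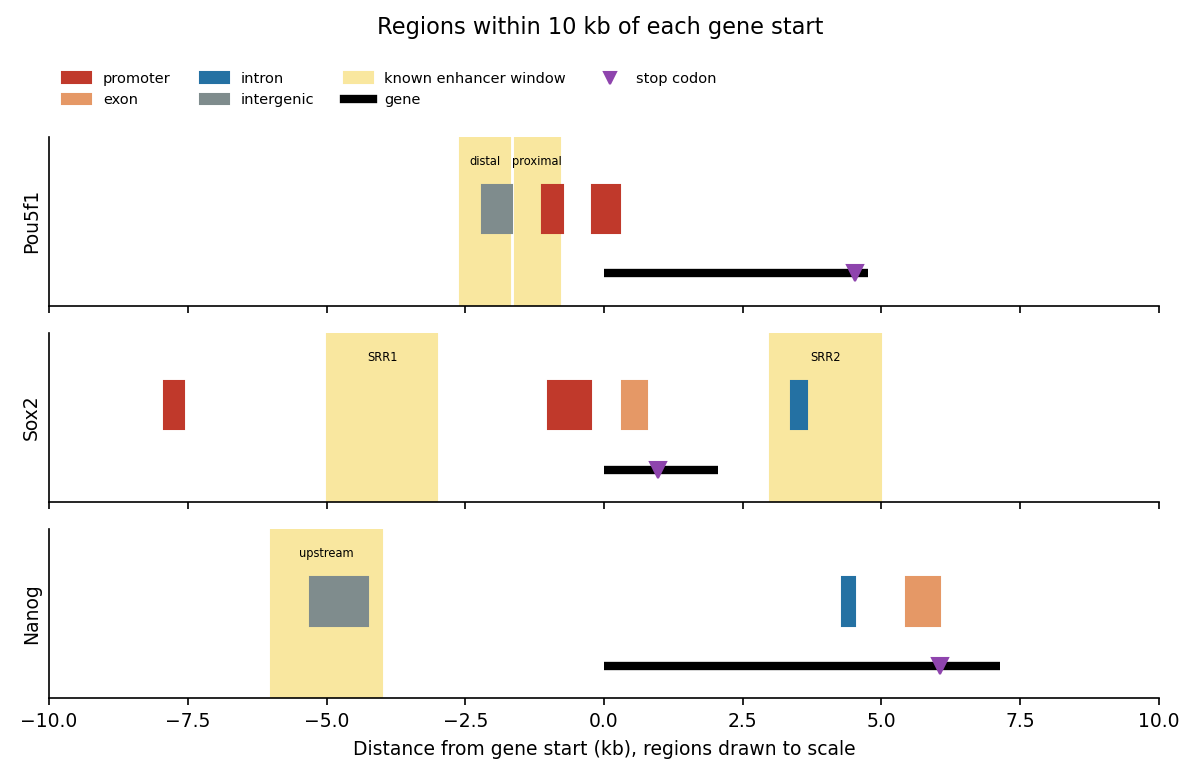
Regions within 10 kb of the gene starts of Pou5f1, Sox2 and Nanog, drawn to scale along the distance from the GENCODE gene start in kb and coloured by class, with the gene as a black bar, the stop codon as a triangle and known enhancer windows shaded. Pou5f1 has a region over its start, Sox2 has regions on either side 243 and 321 bp away, and Nanog has none within 4255 bp.

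The stop codons, where the tags were inserted into Sox2 and Pou5f1, were in no listed region at any of the 3 genes. The nearest region to the Sox2 stop codon ended 189 bp before it and was the one inside the Sox2 exon. At Pou5f1 the nearest was the region over the gene start, 4240 bp away. At Nanog, which carries no tag, a 608 bp region in an exon ended 8 bp before the stop codon. Of that region's 32-letter words, 36.2% had another exact copy in the genome. Nanog is known for processed pseudogenes.

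Of the 8 known enhancer windows, 7 held at least 1 region, and together they held 15 of the 95. The exception was SRR1, set at 5 to 3 kb before the Sox2 start. The nearest regions on either side of that window were the one at the Sox2 promoter and a 372 bp region centred 7.75 kb before the start, in the promoter of the non-coding gene Gm42692. The SRR2 window held a single region, centred 3512 bp after the start, within an intron of the long non-coding gene Sox2ot.

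The control region of Sox2, set at 100 to 120 kb downstream, held 4 regions, all intergenic and centred between 106.44 and 110.96 kb from the start. Their widths were 205, 376, 270 and 475 bp in order of distance. None held the composite or the octamer. The 376 bp region, chr3:34757798-34758173, held the ESRRB motif TCAAGGTCA, the letters bound by the naive factor ESRRB, and the 475 bp region, chr3:34761129-34761603, held a SOX motif.

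The Nanog windows held 8 regions. The upstream enhancer region was wide, since only 3.93% of all regions were at least as wide, and it held 2 SOX motifs. In the far upstream window, an 846 bp region at chr6:122662531-122663376 stood beside the 182 bp region with the octamer, and it held a SOX motif and a TCF motif. The downstream window, 55 to 65 kb from the Nanog start, held 5 regions of 253, 715, 138, 333 and 486 bp. All 5 lay within an intron of the long gene record of Slc2a3, a glucose transporter gene. The 486 bp region, chr6:122770281-122770766, held a SOX and an ESRRB motif, and its ESRRB match lay 27 bp from the centre.

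**Figure D2:**
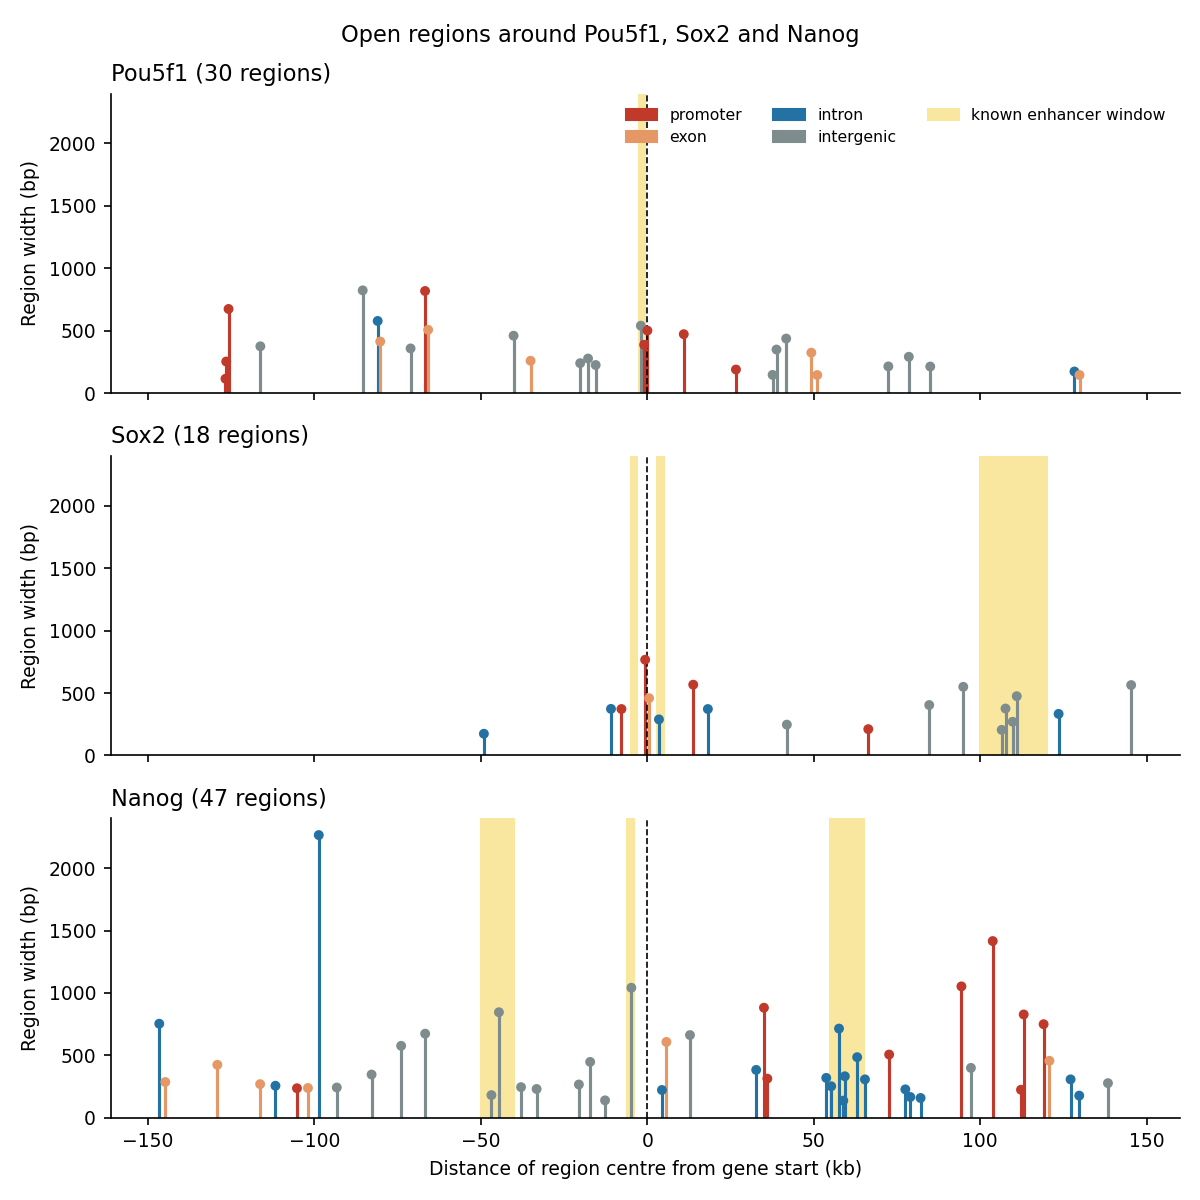
Every region in the windows of Pou5f1, Sox2 and Nanog, plotted by the distance of its centre from the gene start in kb and by its width in bp, coloured by class, with known enhancer windows shaded and the gene start as a dashed line. Nanog has 47 regions on both sides, Pou5f1 has 30, and the 18 at Sox2 lie mostly downstream.

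Motif letters were more frequent in the enhancer windows than in the list as a whole. The windows are known enhancers of genes that OCT4 and SOX2 bind, so this is a description and no independent test. The list as a whole also includes 17002 promoter regions, which are richer in GC. At least 1 of the 7 motifs was found in 12 of the 15 regions of the enhancer windows (80.0%, 95% Wilson confidence interval 54.8 to 93.0), against 31.8% of all 81132 regions. The SOX motif alone was in 9 of the 15, beside 16.0% of all regions. In 300 bp around each centre, any motif was found in 10 of the 15 (66.7%, interval 41.7 to 84.8), against 26.3% of all regions, and the SOX motif in 6, beside 12.7% of all. Over all 95 regions, 58 had no motif, 29 had 1 kind, 6 had 2 kinds and 2 had 3 kinds. The regions with 3 kinds were the Pou5f1 distal enhancer region and a 1416 bp region at the promoter of Gm5112, 103.75 kb downstream of Nanog.

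The SOX motif, CCATTGT or CCTTTGT, was in 21 of the 95 regions (22.1%, interval 14.9 to 31.4), beside 16.0% of all regions. By locus it was in 7 of 18 regions at Sox2, 10 of 47 at Nanog and 4 of 30 at Pou5f1. Counted in 300 bp around each centre, so that all regions had the same length, it was in 15.8% of the 95 and 12.7% of all. The interval covers counting error only and spans the share of all regions, as did the intervals of the motifs that follow.

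The ESRRB motif was in 4 of the 95 regions (4.21%, beside 2.24% of all), 2 of them at Pou5f1. The KLF motif CCACACCC, whose letters the naive factors KLF2, KLF4 and KLF5 bind, was in 9 (9.47%, beside 7.73%). The TCF motif ATCAAAG, for the factors through which CHIR99021 acts, was in 7 (7.37%, beside 6.04%), and the STAT motif TTCCNGGAA, for the factor that LIF activates, in 2 (2.11%, beside 1.89%). For the octamer the shares were 2.11% and 2.67%. In 300 bp around the centres, shares in the 95 and in all were 2.11% and 2.15% for the octamer, 2.11% and 1.34% for the composite, 4.21% and 1.85% for ESRRB, 8.42% and 6.17% for KLF, 1.05% and 1.31% for STAT, and 1.05% and 4.57% for TCF. The 95 regions thus stood close to the list as a whole for most of these letters. The TCF match nearest to its region's centre was 89 bp from it and the farthest 911 bp, with the next farthest at 204 bp.

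Nanog was among the genes with the most regions around them, while Sox2 was near the middle of all genes. Only 71 of 21938 protein-coding genes (0.324%) had at least as many regions within 150 kb as Nanog with 47, and of these 71 Slc2a3 was the only other gene of the Nanog window. For Pou5f1 with 30 regions the share was 12.2%, and for Sox2 with 18 it was 45.0%. Of the 14 protein-coding genes with a TSS in the Pou5f1 window, Pou5f1 included, 12 had at least 30 regions. The shares moved with the setting: that of Nanog was 0.907% within 100 kb, 0.182% with neighbouring regions joined, 0.128% without regions under 200 bp and 0.105% from the 5-prime end of gene records alone, and that of Pou5f1 was 7.76% within 100 kb. In each of these settings Nanog stayed ahead of Pou5f1, and Pou5f1 ahead of Sox2. None of them left out the 13 Pou5f1 regions by the duplicated H2-Q genes, which are reported further on as uncertain. The other 17 regions of Pou5f1 are fewer than the 18 of Sox2, so the order of these 2 genes rests on those 13. The median over all protein-coding genes was 16 regions, with quartiles of 9 and 24. Within their own chromosomes, 1.98% of genes on chromosome 6 reached the count of Nanog, 17.7% on chromosome 17 that of Pou5f1, and 44.3% on chromosome 3 that of Sox2.

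Gene density differed between the windows. The Sox2 window held the TSS of no other protein-coding gene, the Pou5f1 window those of 14 and the Nanog window those of 8, the members included. Per 100 kb there were 15.7 regions at Nanog, 9.91 at Pou5f1 and 6.00 at Sox2, which is 3.56, 2.74 and 2.18 times the density of the chromosome each lies on. Even the window with the fewest regions thus had more than its chromosome on average. Around protein-coding genes, the median count within 150 kb was 16 on chromosome 3, 18 on chromosome 17 and 19 on chromosome 6. The 18 regions of Sox2 were thus near the median of the genes on its chromosome. Regions covered 7.52% of the Nanog window, 3.60% of the Pou5f1 window and 2.34% of the Sox2 window.

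**Figure D3:**
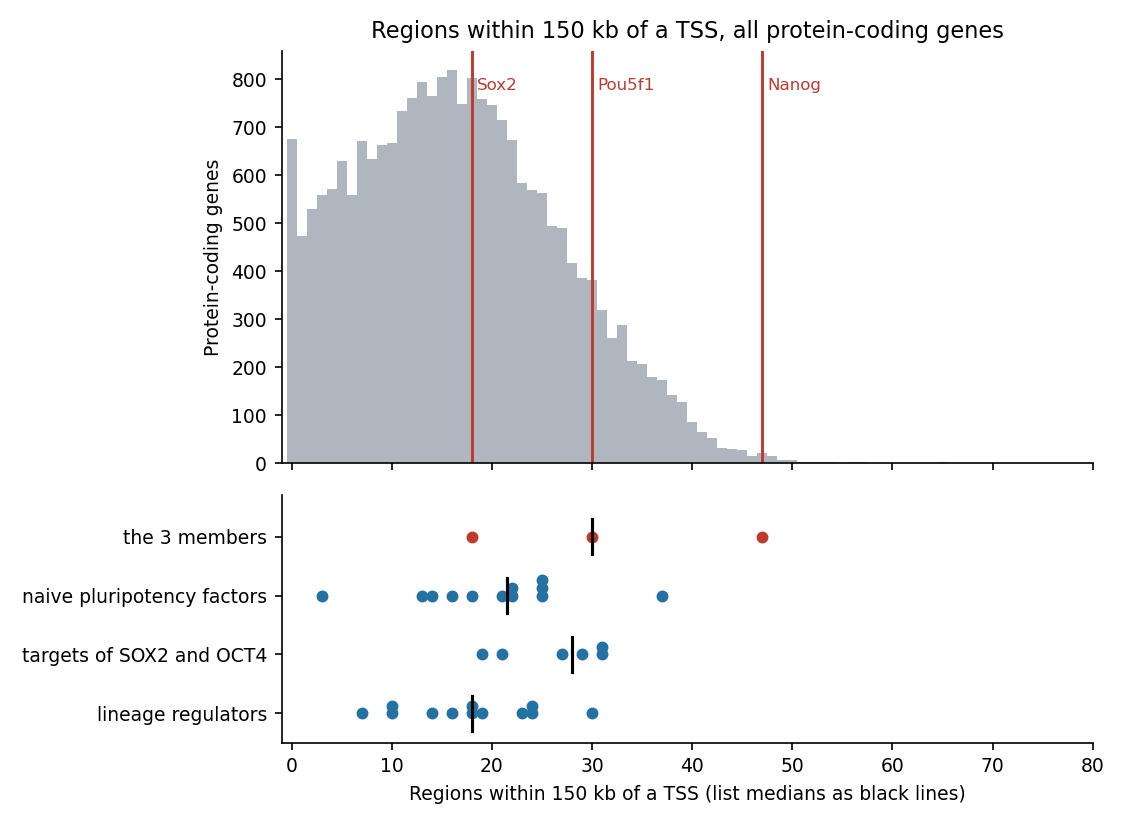
Top, number of protein-coding genes (vertical axis) by their number of regions within 150 kb of a TSS (horizontal axis), with Sox2 (18), Pou5f1 (30) and Nanog (47) as red lines. Bottom, the same count for the members and for the genes of 3 lists, 1 point per gene, with the list median as a black line; Nanog lies to the right of every listed gene.

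Other genes of the network gave a scale for these counts. The 12 naive pluripotency factors had a median of 21.5 regions within 150 kb, and 8 of them had more than the median of all genes. Sall4, a zinc-finger factor and partner of OCT4, had the most with 37, followed by Klf2, Tbx3 and Prdm14 with 25 each. Nr0b1 on the X chromosome had the fewest, with 3. Esrrb and Klf5 had 22, Stat3 21, Zfp42 18, Klf4 16, Tfcp2l1 14 and Nr5a2 13.

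The 6 targets of SOX2 and OCT4 had a median of 28, and all 6 had more than the median of all genes. Lefty1 and Zscan10 had 31 each, Utf1 29, Fgf4 27, Fbxo15 21 and Dppa4 19. The 12 lineage regulators, which act in later germ layers, had a median of 18, and 7 of them had more than the median of all genes. Eomes had the most with 30, T and Mesp1 had 24, Cdx2 23, Neurog2 19, Sox1 and Foxa2 18, Gata4 16, Pax6 14, Olig2 and Sox17 10, and Gata6 7. The 18 regions of Sox2 were thus equal to the median of the lineage regulators, and the 30 of Pou5f1 to the highest among them. Of those 30, 13 lay by the duplicated H2-Q genes described further on, and the other 17 alone would be fewer than that median of 18.

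A region over at least 1 base of the promoter was present at all 12 naive factors, all 6 targets and 11 of the 12 lineage regulators, Mesp1 being the exception, and at 66.5% of all protein-coding genes. Over these lists and the 3 members, Nanog and Mesp1 were the genes without one. At Mesp1 the nearest region was 295 bp from the 5-prime end of the gene record, and at Nanog 4255 bp. Esrrb (4409 bp), Nr5a2 (6251 bp) and Gata4 (15346 bp) had theirs farther from that end, with a region at the promoter of another TSS of the gene.

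Counted by the closest TSS, most regions of the windows belonged to other genes. In the list as a whole, Pou5f1 was the closest gene of 5 regions, Nanog of 3 and Sox2 of 2. The medians were 5 for the naive factors, 2.5 for the targets, 4 for the lineage regulators and 1 for all protein-coding genes. Esrrb had the most in these lists with 19, then Zfp42 with 11. In the Sox2 window, 16 of 18 regions had a non-coding gene as the closest, such as Gm38509 next to the control region, and with protein-coding TSS alone Sox2 was the closest gene of 25 regions. The count of Nanog moved too, to 9 with protein-coding TSS alone and to 6 with the 5-prime end of each gene record alone. The counts at Sox2 and Nanog thus turned on which TSS were included.

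The 5 regions closest to Pou5f1 comprised the compact group at its start and regions centred 15.49 and 17.78 kb upstream, of 225 and 277 bp. Those of Nanog were the 2 inside the gene and a 663 bp region 12.83 kb downstream.

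The regions were spread unevenly around each start. Sox2 had 4 regions upstream and 14 downstream, and none was centred more than 49.05 kb upstream. The next region upstream lay outside the window, at 258.84 kb before the start. Downstream, the last region inside was at 145.31 kb and the first outside at 234.82 kb. The Sox2 regions thus formed an island with long empty stretches on both sides. Of its 18 regions, 8 lay within the Sox2ot gene record, which overlaps Sox2.

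Pou5f1 had 17 regions upstream and 13 downstream, and its largest gap, 43.11 kb, ran from 85.09 to 128.2 kb downstream. The last regions inside its window were at 126.65 kb upstream and 129.8 kb downstream, and the first outside at 163.09 and 161.53 kb. Nanog had 20 upstream and 27 downstream, and its largest gap was 19.46 kb. Here regions followed each other up to the edges, with the last inside at 146.54 kb upstream and 138.35 kb downstream, and the first outside at 150.38 and 155.25 kb. The median gap between neighbours was 4384 bp at Nanog, 4740 bp at Pou5f1 and 9744 bp at Sox2, beside 11300 bp over the whole list.

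By class, 21 of the 95 regions were at promoters (22.1%), 13 in exons (13.7%), 24 in introns (25.3%) and 37 intergenic (38.9%). Over all regions the shares were 21.0%, 8.76%, 35.1% and 35.2%. Introns held 2 of 30 regions at Pou5f1 and 17 of 47 at Nanog. At Sox2, 8 of 18 regions were intergenic.

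Apart from the members, the protein-coding genes with a region centred in their promoter were H2-Q4, H2-Q7, Tcf19, Cchcr1 and Psors1c2 in the Pou5f1 window and Apobec1, Slc2a3 and Foxj2 in the Nanog window. Slc2a3 had 4 such regions at its several starts and Foxj2, a forkhead factor gene, had 3. Dppa3, a germ cell and pluripotency gene 81.1 kb upstream of Nanog, had no region over its promoter, like Nanog. Gdf3, a TGF-β family ligand gene 97.4 kb upstream, had a region over promoter bases, and the centre of that region lay in a Gdf3 intron.

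That Gdf3 region was the widest of all 95. At chr6:122607720-122609984 it spanned 2265 bp, and only 0.0173% of all regions were at least as wide. It held a KLF and a TCF motif, both over 900 bp from its centre. After it, the widest outside promoters at Nanog were the upstream enhancer region and the 846 bp region of the far upstream window. Of these 3 widest outside promoters, 2 thus lay in known enhancer windows.

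At Pou5f1 the widest outside promoters were regions of 823 and 578 bp at H2-Q6 and the 540 bp region of the distal enhancer. At Sox2 they were a 564 bp region 145.31 kb downstream, a 550 bp region 94.9 kb downstream with a SOX and a STAT motif, and the 475 bp region of the control region. Each locus thus had a region of a known enhancer window among its 3 widest outside promoters, a rank that leaves out wider promoter regions. The regions of the enhancer windows were not wide as a set. Of the 15, 8 were wider than the median of all regions, and their median width was 376 bp, beside 355 bp.

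Widths at the 3 loci were otherwise ordinary. The median was 336.5 bp at Pou5f1, 372.5 bp at Sox2 and 320 bp at Nanog, and 347 bp over the 95, beside 355 bp over all regions. At Nanog, 14 of 47 regions were wider than the third quartile of all regions, 564 bp, against 4 of 30 at Pou5f1 and 2 of 18 at Sox2.

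GC content varied more between the loci. Its median was 56.6% at Pou5f1, 52.7% at Sox2 and 50.0% at Nanog, beside 51.9% over all regions. Above the third quartile of all regions, 58.3%, were 13 of 30 at Pou5f1, 5 of 18 at Sox2 and 3 of 47 at Nanog. Those at Pou5f1 included regions by the H2-Q genes, with 61.9 to 67.3%, where regions are reported further on as uncertain. They also included regions elsewhere, such as the one over the Pou5f1 start with 64.1%. The 15 regions of the enhancer windows had a median GC content of 50.0% and a CpG observed over expected of 0.314, the 21 promoter regions 58.7% and 0.573. Over all regions, promoters had 60.6% and 0.685 and the other classes 50.3% and 0.250. The Pou5f1 proximal enhancer region counts in both sets, since its centre is less than 1000 bp before the start. The Pou5f1 start region itself had an observed over expected of 0.370, below the median of promoter regions and above the 0.300 of all regions, while the Sox2 exon region had 0.822.

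**Figure D4:**
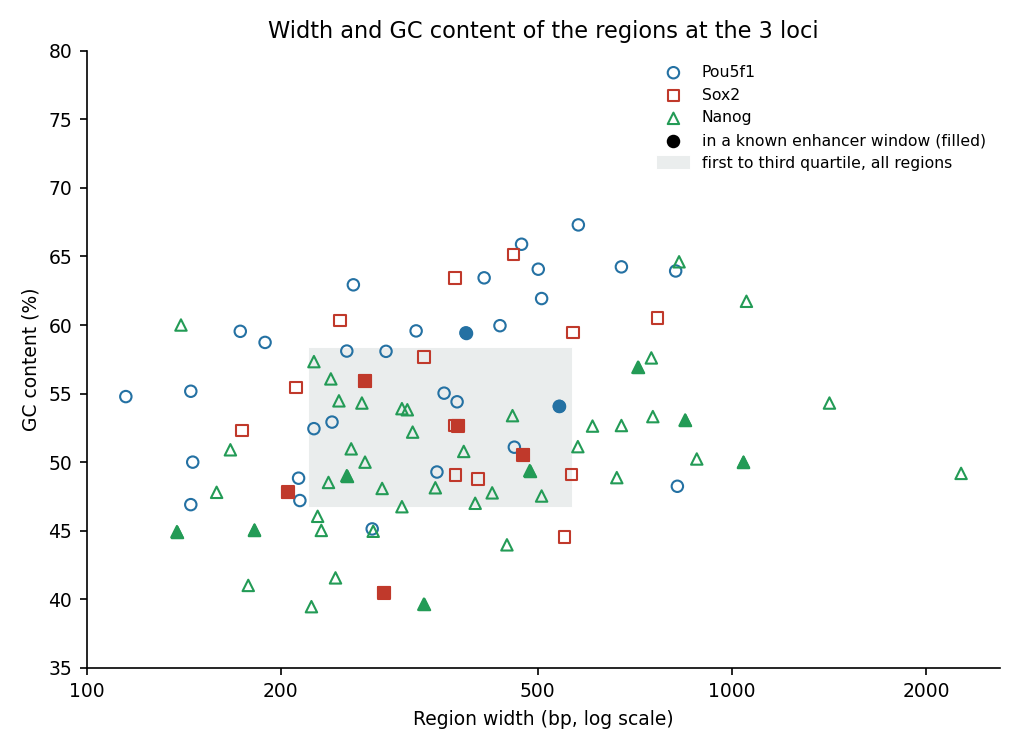
Width in bp (log scale) and GC content in percent of each region at Pou5f1 (circles), Sox2 (squares) and Nanog (triangles), filled where the region lies in a known enhancer window, over a grey box from the first to the third quartile of all 81132 regions (222 to 564 bp and 46.8 to 58.3%). Many Pou5f1 regions lie above the box, some of them by the H2-Q genes, and the widest points are at Nanog.

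Repeat sequence made up little of most regions. A median of 12.7% of bases was soft-masked, beside 9.13% over all regions, and 9 of the 95 regions (9.47%) were masked over more than 50% of their bases, beside 13.7% of all. In the known enhancer windows this applied to a single region, the 253 bp one downstream of Nanog, with 56.9%.

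The H2-Q genes upstream of Pou5f1 are a duplicated family of class I histocompatibility genes, of which H2-Q5 is annotated as a polymorphic pseudogene, and 13 of the 30 regions of the Pou5f1 window lay nearest to them or to Gm11131 beside H2-Q4. At several of these genes regions lay at like distances from the start. Upstream of H2-Q5, H2-Q6, H2-Q7 and H2-Q10 a region was centred at 4285, 4279, 4208 and 4207 bp before the start, with widths of 375, 823, 358 and 460 bp. This set was chosen after its distances were seen. In the 6 pairwise local alignments, these 4 regions were identical at 93.3 to 97.1% of 262 to 460 aligned columns. A further region lay inside the gene 983 bp after the start of H2-Q6, 1061 bp after that of H2-Q7 and 893 bp after that of H2-Q10. H2-Q4 had no region at the upstream distance, with its 3 regions 247 and 28 bp before and 668 bp after its start, and H2-Q5 had none inside the gene.

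Exact copies of short words were frequent there. Of the 13 regions by H2-Q genes, 10 held 32-letter words with another exact copy in the genome, with a median share over the 13 of 38.5% of a region's words and a highest of 65.1%. In the other 17 regions of the Pou5f1 window the median was 0 and the highest 14.3%. Reads are longer than these words, and whether read pairs from the H2-Q copies could be placed uniquely was not tested, so the regions there are reported as uncertain. The regions of the Pou5f1 enhancers held no such word, nor did the 4 in the Sox2 control region. At the Pou5f1 start the share was 4.04%, and at the Nanog upstream enhancer 2.27%. The widest share at Nanog, 62.8%, was in a 674 bp intergenic region 66.69 kb upstream, of which 89.2% was soft-masked.

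**Figure D5:**
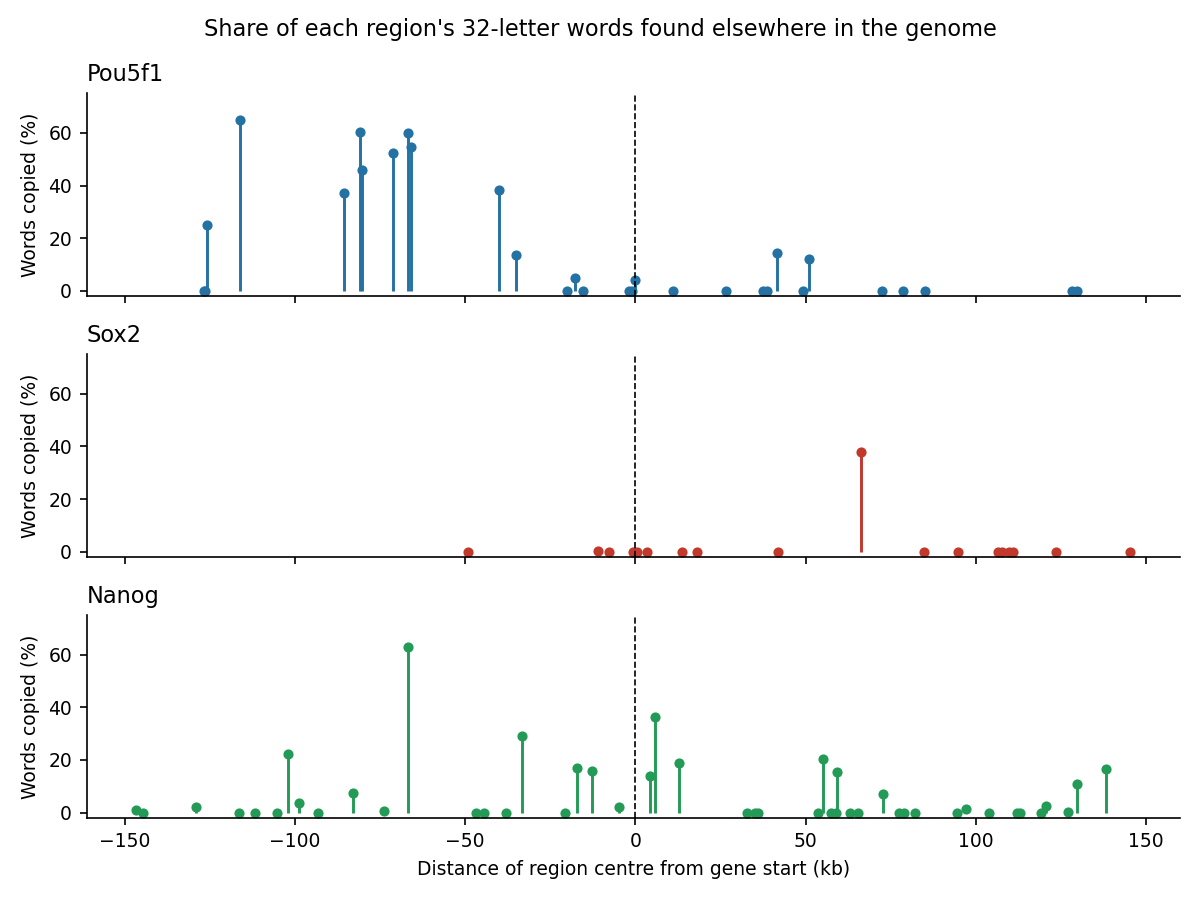
Share in percent of the 32-letter words of each region that have another exact copy on chromosomes 1 to 19, X and Y, by the distance of the region's centre from the gene start in kb, for Pou5f1, Sox2 and Nanog. High shares at Pou5f1 lie upstream at the H2-Q genes, up to 65.1%, and the regions at the Pou5f1 and Sox2 starts and in the Sox2 control region are at or near 0.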

How the data were processed

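ATAC-seq was made from 12 libraries, 3 for each of SHOH, SHOL, SLOH and SLOL. The authors aligned reads to mm10 with STAR (2.5.3a), kept unique hits on chromosomes 1 to 19, X and Y, removed duplicates with Picard, found peaks per library with MACS (2.1.1.20160309), merged the peaks with BEDOPS and dropped those over peaks of a ChIP-seq input. The merged list they deposited has 3 columns of positions and no level, so no test was made. The ChIP-seq samples were left out.

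Positions were handled in Python (3.11.15), numpy (2.4.6) and pandas (2.3.3), and plots were made with matplotlib (3.10.9). Genes came from GENCODE M21, and sequence and further starts from RefSeq for GRCm38.p6, whose coordinates are those of mm10. The promoter table matched all 3 members. Distances run from the 5′ end of the gene record, and positions count from 1. A region's class was read at its centre, promoter (1000 bp before to 100 bp after a TSS) before exon, intron and intergenic. Enhancer windows came from textbook knowledge, in kb from the start: Pou5f1 -2.6 to -1.7 (distal) and -1.6 to -0.8 (proximal), Sox2 -5 to -3 (SRR1), 3 to 5 (SRR2) and 100 to 120, Nanog -50 to -40, -6 to -4 and 55 to 65. Motifs were exact letters on both strands. Alignments were local (match 1, mismatch -1, gap -2). Counting steps were tested on simulated data.

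Members and lists were chosen with earlier results of these data known. Named regions were those nearest each start and stop codon, in an enhancer window, among the 3 widest outside promoters, or with the composite. Named genes were the members, the listed genes and coding genes with a window region in their promoter. Others, such as the neighbours of these genes, were named after their values were seen. Alternatives varied the window, the TSS used, the promoter's extent, joining of neighbours up to 500 bp apart, regions under 200 bp, the bases searched and a C before the composite.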

Additional observations from a re-analysis of the deposited data

How the results depend on the processing

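Of 103 values under other settings, 77 moved by no more than the tolerance, which was 1.5 times for counts and a 95% binomial interval for shares and medians, and 26 moved by more. Counts per window, median widths and enhancer window counts stayed within it in every setting run for them. The settings for counts per window included RefSeq starts, chosen after seeing the data. Going from 150 to 100 or 200 kb changes the reach by no more than the tolerance of 1.5 times. Evenly spread regions would pass these 2 settings, so passing them is no sign of stable counts. Counts at Pou5f1, Sox2 and Nanog were 24, 12 and 32 within 100 kb, and 40, 18 and 57 within 200 kb (main 30, 18 and 47). The order of Nanog, Pou5f1 and Sox2 among all genes was the same in every setting run. No setting left out the 13 Pou5f1 regions by H2-Q genes. The other 17 regions of Pou5f1 are fewer than the 18 of Sox2. Without only the 10 of the 13 that held copied words, Pou5f1 would keep more regions than Sox2.

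With promoters of 5 kb to both sides, 10 regions outside promoters were left at Pou5f1, 8 at Sox2 and 23 at Nanog (main 22, 14 and 38). With protein-coding TSS alone, the closest regions numbered 25 at Sox2 and 9 at Nanog. By closest gene body Sox2 had 0, because it lies inside Sox2ot and ties went to the gene record that starts first. The region in the Sox2 exon lies in both genes and was counted for Sox2ot. By the 5-prime end of gene records Nanog had 6.

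The percent of genes with at least as many regions as Pou5f1 (main 12.2%) was 7.76% within 100 kb, 8.93% within 200 kb, 9.99% outside promoters, 14.9% with neighbours joined, 13.4% without regions under 200 bp and 9.79% from the 5-prime end alone. For Sox2 (main 45.0%), in the same order, it was 48.6%, 59.3%, 36.0%, 39.5%, 34.6% and 40.6%. For Nanog (main 0.324%) it was 0.907% within 100 kb, 0.182% with neighbours joined, 0.128% without regions under 200 bp and 0.105% from the 5-prime end alone. The cause was not tested.

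Without regions under 200 bp, 1 region held the octamer. In 300 bp around the centre, 1 region held the STAT motif and 1 the TCF motif. The regions with these motifs were all wider than 300 bp, so fewer of their bases were searched, while narrower regions were searched past their ends.

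No paired analysis was possible because the list merges all 12 libraries and holds no value for any of them. A region says that a peak was found in at least 1 library, not in which or how strongly. An absent region may have been removed with the input peaks or never found, so its absence from the list is no sign of closed chromatin.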
